A study of Mus musculus with 12 samples.

Results

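The genes described here are 41 genes of neural progenitors, radial glia and the Notch pathway, read on arrays of sorted cells of the embryonic mouse hindbrain. They were taken by name, from a list drawn up with earlier results of these data known, and comprise ligands, receptors, modulators and target genes of Notch, the Id family, SOX factors of progenitors, radial glial genes, proneural and Olig factors, and a few other regulators. All 41 had a probe set, and 39 of them were among the 12845 genes that passed a filter on low signal. Hey2 and Zic2 did not pass it. Olig2, Olig3 and Rest passed only through the YFP-negative arrays, so that a difference in them was in part built into the filter.

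Cells came from the neural tube of E12.5 ePet-EYFP embryos. In this transgene an enhancer of Pet-1, a serotonergic transcription factor, drives yellow fluorescent protein (YFP), so that the sort follows the activity of that enhancer. All 4 groups share this genotype and age. The tissue was cut into a rostral domain, between the mesencephalic and the pontine flexure, and a caudal domain, from the pontine flexure to the spinal cord. R+ and C+ are the YFP-positive cells of the rostral and the caudal domain, sorted as serotonin neurons. R- and C- are the YFP-negative rest. Each group had 3 arrays, each made from 200000 sorted cells. They are labelled as biological replicates, but neither litters nor pooling of embryos is stated. The p-values therefore rest on the spread between these arrays, which may be technical. R- and C- are thus mixtures of all other cells of their domain.

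Neural progenitors of the embryonic neural tube divide at the ventricle, and radial glia are their elongated form, which also guide migrating neurons. In Notch signalling a ligand of the Delta or Jagged family on one cell binds a Notch receptor on its neighbour, whose cleaved intracellular part joins the DNA-binding protein RBPJ and switches on Hes and Hey repressors. These repressors hold down proneural genes, and proneural factors in turn raise Delta ligands, so that a cell on its way to becoming a neuron keeps its neighbours in the progenitor state.

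The groups were checked against markers of the cells they could hold. All 10 serotonergic markers, among them Tph2 and Slc6a4, were higher in the YFP-positive cells of both domains. The sample titles call R- and C- neurons, while the design text calls them cells. Genes of dividing cells had signal in them: the summed signal of 18 measured proliferation genes was 39542 to 50472 in R- against 16050 to 20977 in R+, and 32800 to 38353 in C- against 15290 to 18701 in C+. Mki67, a marker of dividing cells, was lower by a log2 difference of -2.67 in R+ and -2.58 in C+. The median signal of an array lay between 93 and 121. A measure of RNA quality, the beta-actin control's 3' over 5' signal, was 3.38 ± 0.61 (SD, n = 6) on the rostral and 5.77 ± 1.31 (SD, n = 6) on the caudal arrays, so that comparisons between domains carry this difference as well.

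Promoter sequences are shown for 3 genes on which the results below turn: Hes5, a direct effector of Notch, and the ligands Dll1 and Dll3. They are RefSeq sequences of GRCm38.p6, 300 bases long, from 250 bases before to 50 bases after an annotated start, and 31 of the 41 genes had at least one such window. Capitals in the Hes5 window, at chr4:154960673-154960972 on the plus strand, mark the RBPJ motif GTGGGAA or its reverse complement TTCCCAC. Capitals in the Dll1 window, at chr17:15376883-15377182 on the minus strand, and in the Dll3 window, at chr7:28301736-28302035 on the minus strand, mark the E-box CAGCTG, a palindrome that proneural factors can bind.
Hes5: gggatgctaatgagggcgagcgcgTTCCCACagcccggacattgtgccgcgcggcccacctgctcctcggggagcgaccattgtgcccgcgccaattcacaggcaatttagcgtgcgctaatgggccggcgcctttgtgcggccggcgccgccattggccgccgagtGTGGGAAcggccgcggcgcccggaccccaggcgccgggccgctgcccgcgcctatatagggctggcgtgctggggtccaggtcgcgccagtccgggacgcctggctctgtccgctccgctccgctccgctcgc
Dll1: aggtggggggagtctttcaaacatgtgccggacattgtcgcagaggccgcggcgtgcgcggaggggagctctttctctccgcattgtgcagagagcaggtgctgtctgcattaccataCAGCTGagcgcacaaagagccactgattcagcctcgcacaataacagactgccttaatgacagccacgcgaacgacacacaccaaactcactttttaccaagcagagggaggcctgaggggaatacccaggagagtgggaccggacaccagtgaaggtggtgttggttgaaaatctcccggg
Dll3: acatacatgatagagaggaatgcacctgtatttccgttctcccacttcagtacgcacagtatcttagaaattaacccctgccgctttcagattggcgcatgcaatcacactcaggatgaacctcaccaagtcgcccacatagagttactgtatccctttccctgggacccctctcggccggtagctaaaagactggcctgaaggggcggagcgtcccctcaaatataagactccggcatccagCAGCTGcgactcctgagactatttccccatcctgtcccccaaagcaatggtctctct
The RBPJ motif begins 226 and 83 bases before the start in Hes5. It lay in 3 of the 39 windows of these genes (7.69%), those of Hes5, Hey2 and Lfng, against 6.38% of all 32851 windows. The E-box begins 132 bases before the start in the Dll1 window shown, while the window of a second annotated Dll1 start holds 0, and it begins 7 bases before the start in Dll3. It lay in 7 of the 39 windows (17.9%) against 16.3% of all. Neither share was far from that of all promoters. A match is a description of the letters, and binding was not measured.

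Most of these genes had lower signal in serotonin neurons than in the cells around them, in both domains. In R+ against R- 27 of the 39 genes were lower, 1 was higher and 11 did not pass the test (adjusted p under 0.05, limma with Benjamini-Hochberg adjustment over all genes), where 7.86% of all genes were called lower and 4.34% higher. In C+ against C- 23 were lower, 1 was higher and 15 did not pass, where 7.39% of all genes were lower and 5.71% higher. Without the filter, and over all 41 genes, 27 were lower rostrally (background 5.11%) and 25 caudally (background 4.67%). The median difference on the log2(signal + 10) scale, on which all differences below are given, was -1.39 rostrally and -0.93 caudally, against -0.01 and -0.04 over all genes. Higher without the filter were 1 and 1 (background 2.76% and 3.68%). With the replicate number as a block 31 were lower and 2 higher rostrally (background 12.3% and 8.59%), and 25 lower and 4 higher caudally (12.3% and 10.5%). Values quoted below for second probe sets come from a fit over all kept probe sets. In it, of 18 other probe sets of the genes called rostrally, 17 had the same sign and 7 were called too, and of 16 caudally, 16 and 6. Scaling each array to one median left the counts of these genes at 27 and 1 rostrally and 23 and 1 caudally, while the share of higher calls over all genes in C+ against C- went from 43.6% to 52.7%. The arrays did not overlap for most genes: all 3 arrays of R+ lay below all 3 of R- for 32 of the 39 genes and above for 3 (16.4% and 12.1% of all genes), and those of C+ below C- for 26 and above for 1 (15.1% and 12.3%).

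Beside these differences stand those of other cells. Of 18 proliferation genes 16 were lower in R+ and 14 in C+. All 4 measured red blood cell genes were lower in both, and their summed signal was 8693 to 15580 in R+, 45070 to 59141 in R-, 4792 to 8626 in C+ and 40427 to 44926 in C-. Of 15 genes of postmitotic neurons 3 were higher and 3 lower in each domain. Of 8 mesenchymal genes 3 were lower in R+, and 4 lower and 1 higher in C+. Of 7 endothelial genes 0 were lower in R+ and 2 in C+, and of 7 macrophage genes 1 was higher in R+ and 1 lower in C+. Of 5 measured genes of neural crest and peripheral glia 2 were lower in each domain and 1, Pou3f1, was higher in R+. One of the 2 is Fabp7, which is also one of the genes described here. The part of these in the results was not tested. In RNA of sorted populations fewer cells of a type and less RNA per cell cannot be told apart.

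**Figure D1:**
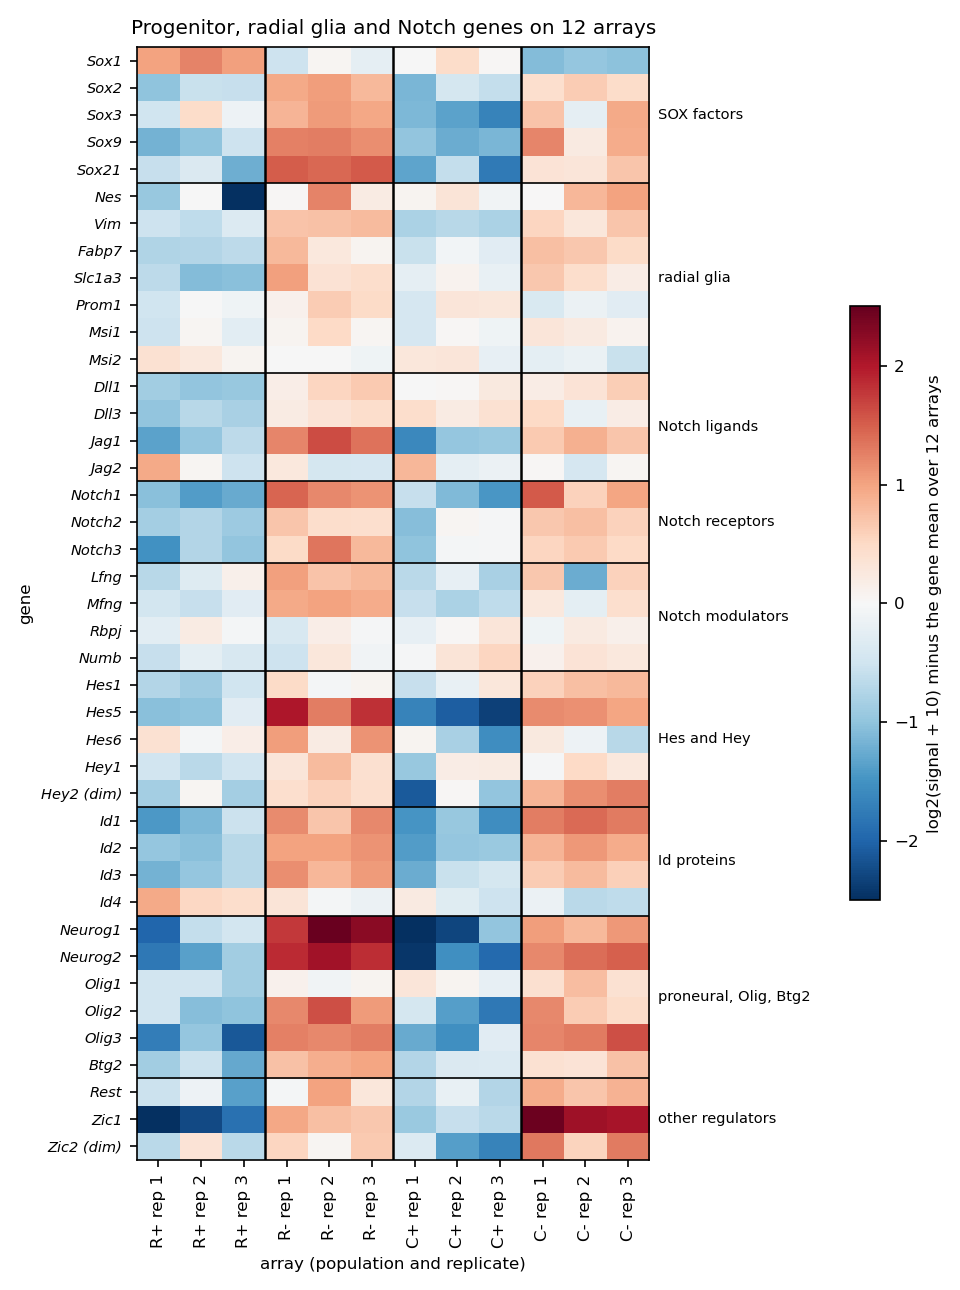
Log2(signal + 10) of the 41 genes on the 12 arrays, each minus the gene's own mean over the arrays, with genes grouped by role and arrays by population; Hey2 and Zic2 did not pass the filter and are marked as dim. Most rows are below their mean in the R+ and C+ arrays and above it in the R- and C- arrays, with Sox1 the reverse.

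The Delta ligands separated the domains. Dll1, a ligand of cells committing to neuronal fate, had signals of 2118, 1959 and 2031 in R+ and of 4380, 5687 and 6145 in R-. In C+ it was at 3881, 4005 and 4652, and in C- at 4461, 4980 and 5989. The R+ arrays thus lay below all 9 others, while C+ and C- overlapped. Dll1 was lower in R+ than in R- by -1.39 ± 0.15 (SE, n = 3 arrays a group throughout; adjusted p = 1.39e-05), and differed between C+ and C- by -0.29 ± 0.15 (adjusted p = 0.251).

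Dll3, a Delta relative that acts inside the cell that makes it, was likewise lowest in R+. Its signals were 1573, 1944 and 1779 in R+ and 3608, 3972 and 4283 in R-. In C+ they were 4279, 3620 and 4096 and in C- 4466, 2758 and 3590, with the caudal groups overlapping and R+ again below every other array. Dll3 was lower in R+ than in R- by -1.16 ± 0.16 (adjusted p = 0.000175) and differed between C+ and C- by 0.17 ± 0.16 (adjusted p = 0.585). Each Delta gene had 1 probe set, so that no other could check it.

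The difference between these differences, (R+ minus R-) minus (C+ minus C-), was tested in the same fit. Of the 39 genes 2 passed, both downward, where 0.677% of all genes passed downward and 0.49% upward: Dll3 at -1.33 ± 0.23 (adjusted p = 0.00738) and Dll1 at -1.10 ± 0.21 (adjusted p = 0.0159). Dll3 passed in all 25 alternative settings tried. Dll1 did not pass without the second R+ array (adjusted p = 0.0501), the third R+ array (0.05, just above the threshold) or the third R- array (0.0566), nor when the spread was moderated without a trend (0.0648), and over all alternatives its adjusted p ran from 0.00064 to 0.0648. With the replicate block 5 genes passed downward, the others being Prom1 (-0.93, adjusted p = 0.00276), Notch3 (-1.02, 0.0245) and Slc1a3 (-0.99, 0.0338). A second Notch3 probe set gave 0.45 for this difference, of the opposite sign and not called, and the mean of the Notch3 probe sets gave -0.29. In the blocked fit 0 passed upward, and 1.55% of all genes passed downward and 1.1% upward.

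The Jagged ligands did not share this pattern. Jag1 had signals of 342, 447 and 555 in R+ against 2058, 2728 and 2269 in R-, and of 281, 446 and 459 in C+ against 1379, 1640 and 1430 in C-. It was low in every YFP-positive array of both domains, by -2.38 ± 0.21 rostrally (adjusted p = 2.04e-06) and -1.91 ± 0.21 caudally (adjusted p = 1.69e-05). With the mean of all its kept probe sets in its place the rostral difference was -1.03 (adjusted p = 0.0645), since its dimmer probe sets gave -0.82 and 0.13. Jag2 overlapped in every comparison, at 275 to 774 in R+, 289 to 479 in R-, 338 to 715 in C+ and 292 to 411 in C-, with a rostral difference of 0.36 ± 0.35 (adjusted p = 0.634).

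**Figure D2:**
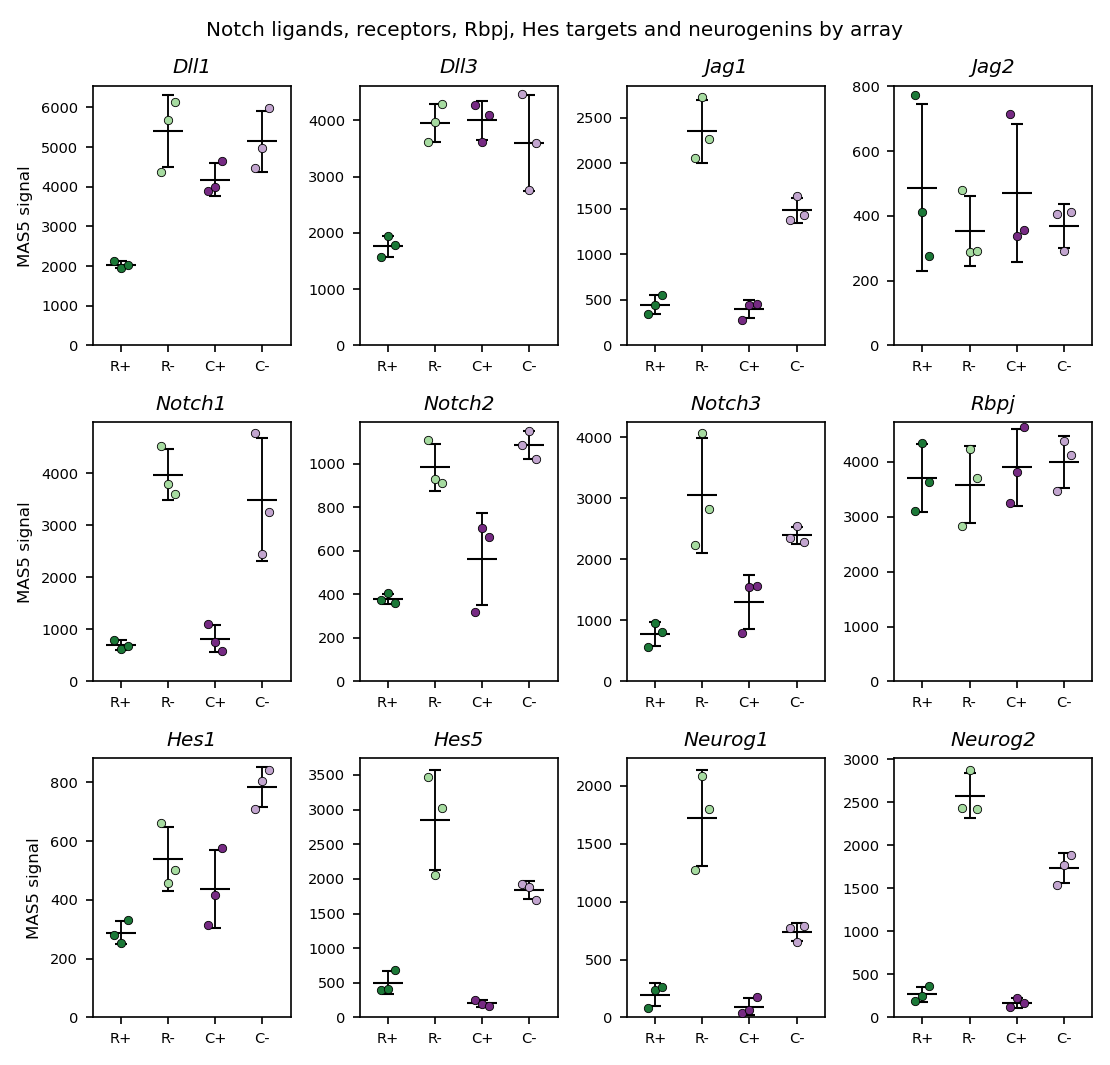
Signal on each array (points) with the group mean ± SD (n = 3) for the Notch ligands, receptors, Rbpj, Hes genes and proneural factors, by population. Dll1 and Dll3 are low in R+ alone, Jag1, the receptors, Hes5 and the neurogenins are low in both R+ and C+, and the 4 groups overlap for Rbpj.

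All 3 Notch receptors were lower in serotonin neurons of both domains. Notch1 had signals of 800, 620 and 679 in R+ and 4526, 3800 and 3595 in R-, and of 1107, 761 and 594 in C+ and 4778, 2449 and 3257 in C-. The groups did not overlap, and the differences were -2.49 ± 0.24 rostrally (adjusted p = 4.67e-06) and -2.07 ± 0.24 caudally (adjusted p = 2.64e-05). A second Notch1 probe set gave -0.45 and -0.96, neither of which passed.

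Notch2 was lower by -1.35 ± 0.24 in R+ (374, 405 and 359 against 1106, 929 and 912; adjusted p = 0.00125) and by -1.02 ± 0.24 in C+ (318, 702 and 664 against 1085, 1149 and 1023; adjusted p = 0.009). Neither passed with the mean of its probe sets (-1.02 and -0.56, adjusted p = 0.134 and 0.464). Notch3 had 560, 963 and 807 in R+ and 2232, 4070 and 2829 in R-, a difference of -1.95 ± 0.27 (adjusted p = 0.000162). In C+ it had 797, 1550 and 1569 and in C- 2339, 2543 and 2283, a difference of -0.93 ± 0.27 (adjusted p = 0.0335). A second Notch3 probe set gave -0.96 in R+ (adjusted p = 0.121) and -1.40 in C+ (adjusted p = 0.018). The first C+ array was the lowest of its group, and the caudal call was lost without it (-0.61, adjusted p = 0.103) or without any one of the C- arrays (adjusted p 0.0724 to 0.0962).

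Among the modulators, Mfng, a fringe glycosyltransferase that tunes which ligand a receptor answers to, was lower in both domains. It had 704, 649 and 796 in R+ and 1880, 1964 and 1867 in R- (-1.40 ± 0.17, adjusted p = 4.13e-05), and 650, 560 and 626 in C+ and 1168, 826 and 1299 in C- (-0.81 ± 0.17, adjusted p = 0.00413). Its relative Lfng was dimmer, at 100 to 186 in R+, 282 to 352 in R-, 92 to 144 in C+ and 66 to 276 in C-. Its rostral difference was -1.14 ± 0.43 (adjusted p = 0.107) and its caudal one -0.58 ± 0.43 (adjusted p = 0.462). The second C- array, at 66, stood below the other C- arrays, and without it both differences passed (-1.14, adjusted p = 0.0134, and -1.20, adjusted p = 0.0213).

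Rbpj, the DNA-binding partner of cleaved Notch, was at 3111, 4347 and 3639 in R+ and 2830, 4232 and 3696 in R-, and at 3246, 3809 and 4634 in C+ and 3468, 4384 and 4120 in C-. The 4 groups overlapped. The rostral difference was 0.05 (95% interval -0.33 to 0.43) and the caudal one -0.04 (-0.43 to 0.34). Numb, which restrains Notch in one daughter of a division, differed by -0.30 ± 0.21 rostrally (adjusted p = 0.461) and 0.04 ± 0.21 caudally (adjusted p = 0.94).

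Of the repressors downstream of Notch, Hes5 had the largest differences. Its signals were 402, 413 and 689 in R+ against 3470, 2051 and 3024 in R-, and 257, 194 and 159 in C+ against 1928, 1886 and 1688 in C-. Every YFP-positive array lay below every YFP-negative one, with differences of -2.49 ± 0.24 (adjusted p = 4.37e-06) and -3.13 ± 0.24 (adjusted p = 3.66e-07). A second Hes5 probe set, which has the higher linear mean but may also read related sequences, gave -3.48 and -4.25, and both passed. The Hes5 promoter window shown above holds 2 RBPJ motifs, as does that of Hey2, and binding was not measured.

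Hes1 was lower by less, at 281, 253 and 331 in R+ against 662, 457 and 500 in R- (-0.87 ± 0.22, adjusted p = 0.016) and 314, 417 and 578 in C+ against 708, 803 and 841 in C- (-0.87 ± 0.22, adjusted p = 0.0155). Both calls hung on single arrays: the rostral one was lost without the second R+ array (0.07) or the first R- array (0.0717), and the caudal one without the first (0.054) or second (0.0527) C+ array or the third C- array (0.0655). Hey1 was at 554, 483 and 556 in R+ and 962, 1350 and 1034 in R- (-1.04 ± 0.26, adjusted p = 0.0162; 0.0647 without the second R+ array and 0.0782 without the second R- array). Its caudal groups overlapped (397, 884 and 897 against 758, 1099 and 941; -0.43 ± 0.26, adjusted p = 0.355).

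Hes6, which unlike its relatives promotes neuronal differentiation, overlapped in both domains, at 1025 to 1385 in R+ and 1210 to 2301 in R-, and at 353 to 1111 in C+ and 651 to 1249 in C-. Its differences were -0.61 ± 0.35 (adjusted p = 0.335) and -0.57 ± 0.35 (adjusted p = 0.363). A brighter Hes6 probe set by the linear mean, which may also read related sequences, gave -0.68 rostrally (adjusted p = 0.0261). The caudal difference passed without the first C+ array (-0.98, adjusted p = 0.0433). Hey2 was dim, at 23 to 52 in R+, 70 to 79 in R-, 4 to 51 in C+ and 98 to 134 in C-, and in the fit without a filter its caudal difference was -2.12 ± 0.51 (adjusted p = 0.016).

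The neurogenins were far lower in both domains. Neurog2, which drives progenitors into neurogenesis, was at 187, 253 and 361 in R+ and 2434, 2878 and 2423 in R-, and at 116, 224 and 166 in C+ and 1544, 1771 and 1889 in C-. It was 9.63-fold lower rostrally (-3.27 ± 0.24, adjusted p = 3.42e-07) and 10.04-fold lower caudally (-3.33 ± 0.24, adjusted p = 2.26e-07). Neurog1, its close relative, was at 85, 241 and 263 in R+ and 1269, 2086 and 1803 in R-, and at 34, 67 and 180 in C+ and 772, 650 and 789 in C- (-3.18 ± 0.46, adjusted p = 0.000213, and -3.11 ± 0.46, adjusted p = 0.000245). A second Neurog1 probe set gave -0.56 and -0.31, neither of which passed, and with the mean of both the differences were -1.87 (adjusted p = 0.0438) and -1.71 (adjusted p = 0.0627, no longer called). Of the C+ arrays 1 was over 107 for Neurog1. On the probe sets used, no array of either gene overlapped between YFP-positive and YFP-negative cells. Between C+ and C- this stood beside Delta ligands, which such factors can activate, that were not called.

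Btg2, an antiproliferative gene of progenitors about to make neurons, was at 486, 616 and 362 in R+ and 1501, 1693 and 1788 in R- (-1.77 ± 0.20, adjusted p = 1.88e-05), and at 537, 698 and 705 in C+ and 1164, 1134 and 1500 in C- (-0.96 ± 0.20, adjusted p = 0.00375). A second Btg2 probe set gave -1.25 (adjusted p = 0.148) and -0.92 (0.308), neither of which passed. Olig3, a factor of dorsal progenitors, was at 54, 99 and 39 in R+ and 495, 478 and 507 in R-, and at 79, 63 and 164 in C+ and 482, 515 and 640 in C- (-2.85 ± 0.34 and -2.40 ± 0.34, adjusted p = 3.86e-05 and 0.000168). Of its R+ arrays 0, and of its C+ arrays 1, were over 107, the limit of the filter, so the size of these differences depends on dim values. Olig3 and Olig2 passed the filter only through YFP-negative arrays, so that a lower call in them was in part built in. Olig2, a factor of ventral progenitors, was dim, at 20 to 35 in R+ and 120 to 180 in R- (-2.13 ± 0.55, adjusted p = 0.0184) and at 8 to 36 in C+ and 76 to 133 in C- (-1.97 ± 0.55, adjusted p = 0.0279). The rostral Olig2 call was lost without any one array of R- or the second or the third array of R+ (adjusted p up to 0.0946), and the caudal one without any one array of C- or the second or the third array of C+ (up to 0.124). Olig1, its neighbour gene, was lower on every array of R+ than of R- and of C+ than of C-, without passing (-0.63 ± 0.21, adjusted p = 0.066, and -0.47 ± 0.21, adjusted p = 0.186; rostrally 0.0252 with the replicate block).

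The Id family divided. Id1, Id2 and Id3, which keep progenitors undifferentiated by binding the partners of proneural factors, were lower in serotonin neurons of both domains. Id1 was at 244, 307 and 466 in R+ and 1546, 1106 and 1572 in R-, and at 239, 350 and 224 in C+ and 1673, 1836 and 1700 in C- (-2.05 ± 0.23, adjusted p = 2.39e-05, and -2.66 ± 0.23, adjusted p = 1.49e-06). Id2 was at 466, 443 and 567 in R+ and 1874, 1865 and 2033 in R-, and at 346, 469 and 482 in C+ and 1680, 1970 and 1768 in C- (-1.95 ± 0.16, adjusted p = 9.17e-07, and -2.05 ± 0.16, adjusted p = 4.57e-07). Id3 was at 559, 650 and 791 in R+ and 2873, 2282 and 2706 in R-, and at 538, 867 and 948 in C+ and 1992, 2243 and 1956 in C- (-1.97 ± 0.20, adjusted p = 8.19e-06, and -1.42 ± 0.20, adjusted p = 0.000165). On the probe sets used, none of the 3 overlapped between YFP-positive and YFP-negative arrays of a domain. A second Id2 probe set gave -2.07 and -3.09, both called. Another, dimmer, gave -1.85 (adjusted p = 0.0633) and -0.61 (0.632), neither of which passed.

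Id4, the fourth of the family, was not lower. It was at 12588, 9420 and 8897 in R+ and 8242, 6361 and 5953 in R-, with every R+ array above every R- array. In C+ it was at 7692, 5332 and 4552 and in C- at 5943, 4139 and 4229, where the groups overlapped but each C+ array lay above the C- array of its own number. The differences of 0.59 ± 0.21 (adjusted p = 0.0873) and 0.28 ± 0.21 (adjusted p = 0.458) did not pass, and both passed with the replicate number as a block (adjusted p = 0.000126 and 0.0259). The rostral one also passed without the first C+ array (0.0365). The first replicate was the brightest in each of the 4 groups. Of 2 further Id4 probe sets, one gave 0.39 and -0.01 and the other 0.65 and -0.07, and none of these passed.

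**Figure D3:**
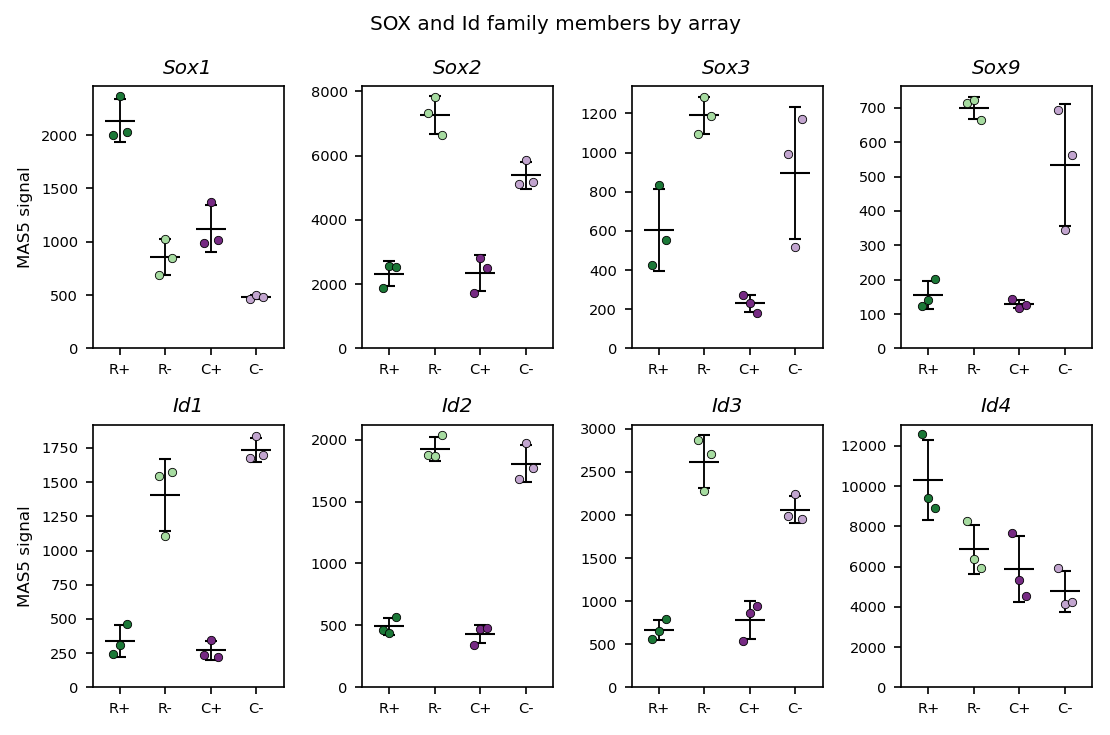
Signal on each array (points) with the group mean ± SD (n = 3) for the SOX factors Sox1, Sox2, Sox3 and Sox9 and for Id1 to Id4, by population. Sox1 is higher in R+ and C+ than in their YFP-negative partners, Id4 is higher in R+ than in R- on every array, and the others are lower in R+ and C+.

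Sox1 was the one gene of the 39 called higher in serotonin neurons, and it was so in both domains, where 2.7% of all genes were higher in both. Sox1, an early factor of neural progenitors that some neurons also make, was at 2001, 2365 and 2033 in R+ and 689, 1030 and 845 in R-, and at 985, 1375 and 1012 in C+ and 463, 499 and 482 in C-. The groups did not overlap, and the differences were 1.32 ± 0.17 (adjusted p = 9.94e-05) and 1.19 ± 0.17 (adjusted p = 0.000239).

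The other SOX genes were lower. Sox2, its close relative and a general progenitor factor, was at 1888, 2563 and 2532 in R+ and 7322, 7836 and 6656 in R-, and at 1713, 2800 and 2519 in C+ and 5111, 5871 and 5190 in C- (-1.65 ± 0.18, adjusted p = 1.29e-05, and -1.23 ± 0.18, adjusted p = 0.000193). Sox3, the third of this subfamily, was at 427, 833 and 553 in R+ and 1097, 1285 and 1187 in R- (-1.02 ± 0.29, adjusted p = 0.0293), and at 273, 233 and 183 in C+ and 994, 518 and 1171 in C- (-1.85 ± 0.29, adjusted p = 0.000391). The rostral Sox3 call was lost without the first (adjusted p = 0.135) or the third (0.0886) R+ array or any one R- array (0.0544 to 0.0967).

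Sox9, a factor of radial glia and of the switch to glia, was at 123, 141 and 202 in R+ and 714, 723 and 663 in R-, and at 143, 118 and 126 in C+ and 694, 344 and 563 in C- (-2.13 ± 0.25, adjusted p = 3.89e-05, and -1.91 ± 0.25, adjusted p = 9.49e-05). A second Sox9 probe set gave -1.79 (adjusted p = 0.0524, not called) and -2.57 (0.00604). Sox21, which opposes the Sox2 subfamily, was at 257, 302 and 162 in R+ and 1128, 1067 and 1145 in R-, and at 150, 255 and 107 in C+ and 494, 480 and 637 in C- (-2.21 ± 0.28, adjusted p = 6.76e-05, and -1.67 ± 0.28, adjusted p = 0.000767). Within the SOX group, then, 4 of 5 were lower and 1 was higher, with no overlap between YFP-positive and YFP-negative arrays in either domain.

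Among the 7 radial glial genes, 4 were lower in R+, 2 in C+ and 0 higher in either. Vim, the intermediate filament vimentin, was at 6089, 5642 and 6863 in R+ and 14383, 14563 and 15188 in R-, and at 5019, 5403 and 5007 in C+ and 12741, 10553 and 14124 in C- (-1.25 ± 0.12, adjusted p = 5.15e-06, and -1.27 ± 0.12, adjusted p = 3.77e-06). Fabp7, a lipid-binding protein of radial glia, was at 8709, 8814 and 9234 in R+ and 25490, 17480 and 15353 in R-, and at 9931, 13976 and 11958 in C+ and 24560, 23163 and 20302 in C- (-1.09 ± 0.17, adjusted p = 0.000426, and -0.93 ± 0.17, adjusted p = 0.00146). On the probe sets used for both genes, the YFP-positive arrays kept a signal well over the array median. They lay below every YFP-negative array of both domains. A second Vim probe set gave -1.08 rostrally (adjusted p = 0.0281) and -0.78 caudally (0.12, not called). Another gave -0.74 (0.147) and -0.63 (0.218), neither of which passed.

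Slc1a3, the glutamate transporter of radial glia, was at 396, 293 and 298 in R+ and 1289, 809 and 852 in R-, and at 533, 667 and 553 in C+ and 1007, 858 and 712 in C-. The rostral difference was -1.53 ± 0.21 (adjusted p = 0.000127) and the caudal one, -0.54 ± 0.21, did not pass (adjusted p = 0.112; 0.0281 with the replicate block). Nes, the intermediate filament nestin, was uneven: it was at 771, 1483 and 224 in R+ and 1523, 3541 and 1715 in R-, and at 1552, 1866 and 1400 in C+ and 1495, 2640 and 2998 in C-. The third R+ array was far below the others. Its rostral difference of -1.70 ± 0.50 passed (adjusted p = 0.038) but not without that array (-0.97, adjusted p = 0.144), nor without the first R+ array (0.0623) or the second (0.167) or the third (0.0712) R- array. A second Nes probe set gave -0.25 and 0.48, neither of which passed, and the mean of both gave -0.98 rostrally (adjusted p = 0.167).

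Prom1, the membrane protein prominin-1 of progenitor apical surfaces, was at 2061, 2886 and 2680 in R+ and 3141, 4490 and 4051 in R-, and at 2166, 3588 and 3522 in C+ and 2234, 2634 and 2379 in C-. R+ lay below R-, while C+ and C- overlapped, and the differences of -0.61 ± 0.20 and 0.32 ± 0.20 did not pass (adjusted p = 0.0618 and 0.364). With the replicate block both passed, in opposite directions (adjusted p = 0.000806 and 0.0461), as they did without the first C+ array (0.0154 and 0.0448). Neither of the Musashi genes, which encode RNA-binding proteins of progenitors, was called on the probe set used. Msi1 gave -0.44 ± 0.17 and -0.38 ± 0.17 (adjusted p = 0.111 and 0.18; 0.0127 and 0.0292 with the block). A second Msi1 probe set was called lower in C+ (-1.68, adjusted p = 0.027), and the mean of both gave -1.03 there (adjusted p = 0.00178). Msi2 gave 0.27 ± 0.16 and 0.44 ± 0.16 (adjusted p = 0.348 and 0.0894; the second 0.00584 with the block). The caudal Msi2 difference also passed without the third C+ array (0.61, adjusted p = 0.0195).

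**Figure D4:**
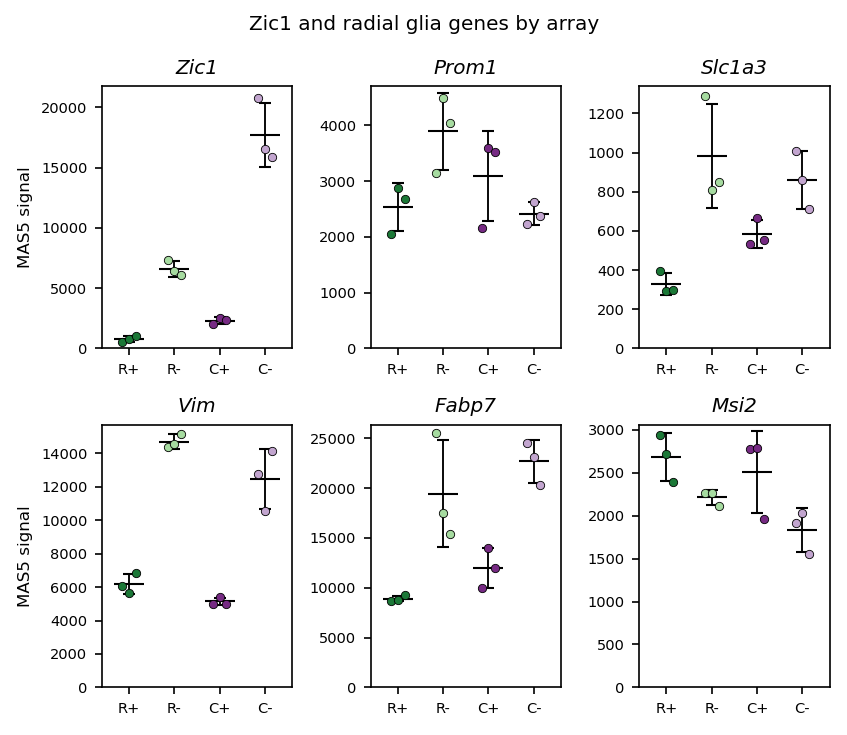
Signal on each array (points) with the group mean ± SD (n = 3) for Zic1, Prom1, Slc1a3, Vim, Fabp7 and Msi2, by population. Zic1 takes a separate level in each of the 4 groups, Vim and Fabp7 are lower in R+ and C+, Slc1a3 is lowest in R+, and Prom1 and Msi2 are not called.

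Zic1 and Sox1 were called in all 4 comparisons of groups. Zic1, a zinc-finger factor of dorsal neural tube progenitors, was at 562, 783 and 1034 in R+, 1992, 2536 and 2358 in C+, 7378, 6391 and 6062 in R- and 20772, 16530 and 15892 in C-. No array overlapped with one of another group, and the order was R+, C+, R-, C-. It was lower by -3.08 ± 0.19 in R+ against R- (adjusted p = 6.99e-08), -2.94 ± 0.19 in C+ against C- (7.14e-08), -1.56 ± 0.19 in R+ against C+ (0.000129) and -1.42 ± 0.19 in R- against C- (0.000495). The difference between the domains' differences was -0.14 ± 0.27 (adjusted p = 0.987).

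Zic2 was dim, at 24 to 59 in R+, 46 to 76 in R-, 7 to 33 in C+ and 70 to 126 in C-, and without a filter its caudal difference was -2.19 ± 0.48 (adjusted p = 0.00867). Rest, a repressor of neuronal genes outside neurons, was at 103, 140 and 54 in R+ and 149, 319 and 190 in R- (-1.09 ± 0.36, adjusted p = 0.0614), and at 89, 134 and 89 in C+ and 303, 256 and 289 in C- (-1.38 ± 0.36, adjusted p = 0.0171). Rest is one of the genes that passed the filter only through YFP-negative arrays. The rostral difference passed with the replicate block (0.0186), and without the second R+ array (0.0362) or the first R- array (0.0432), and the caudal one was lost without the third C+ array (0.0576) or the first (0.0581) or the third (0.0593) C- array. With the mean of its probe sets the caudal difference was -0.70 (adjusted p = 0.196), the second probe set giving -0.02.

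**Figure D5:**
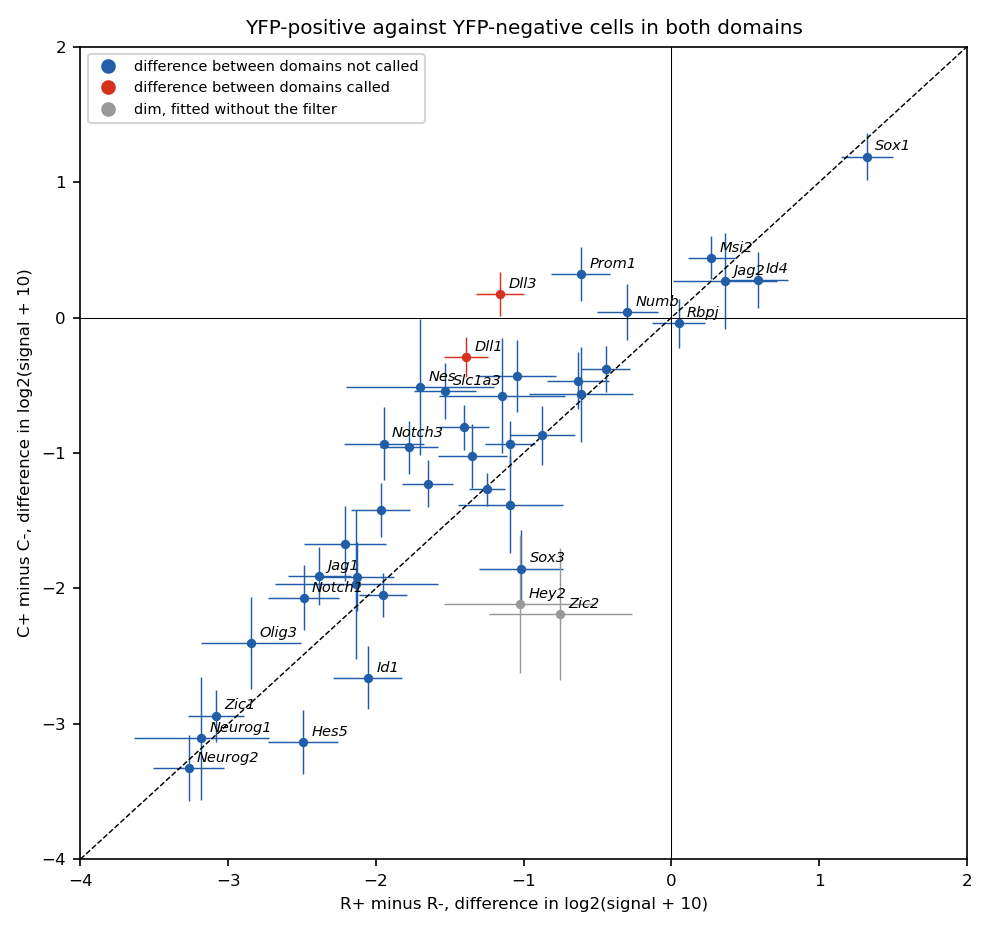
Difference R+ minus R- (horizontal) against C+ minus C- (vertical) on the log2(signal + 10) scale, with bars of 1 SE, for the 41 genes; the dashed line marks equal differences, red marks Dll1 and Dll3 and grey marks Hey2 and Zic2 from the fit without a filter. Most genes lie in the lower left near the line, Sox1 alone stands in the upper right past 1 on both axes, and Dll1 and Dll3 lie above the line near 0 on the vertical axis.

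Across both domains, 22 genes were lower in both R+ and C+, where 4.78% of all genes were. Olig2 and Olig3, which passed the filter only through YFP-negative arrays, are among the 22. A further 5 (Dll1, Dll3, Hey1, Nes and Slc1a3) were called lower in R+ alone and 1 (Rest) in C+ alone, and 10 were called in neither. Of the 5, the difference between domains passed its own test for Dll1 and Dll3, and for Slc1a3 with the replicate block, and did not pass for Hey1 (-0.61 ± 0.37, adjusted p = 0.859) or Nes (-1.19 ± 0.71, adjusted p = 0.845).

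Serotonin neurons of the domains were then compared directly. In R+ against C+ 4 of the 39 genes were higher, 4 lower and 31 not called, where 2.83% of all genes were higher and 4.48% lower. Sox1 (0.93 ± 0.17, adjusted p = 0.00489), Sox3 (1.32 ± 0.29, 0.0126), Hes5 (1.24 ± 0.24, 0.00611) and Id4 (0.83 ± 0.21, 0.0262) were higher in R+. Zic1, Dll1 (-1.03 ± 0.15, 0.000617), Dll3 (-1.18 ± 0.16, 0.000425) and Slc1a3 (-0.82 ± 0.21, 0.0289) were lower. Without overlap, 5 lay all higher and 7 all lower, where 10.1% and 15.9% of all genes did. The median over the 39 was -0.07, against -0.05 over all genes.

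This comparison runs along the difference in RNA quality between the domains. The beta-actin ratio ran from 2.64 to 4.39 on the rostral and from 4.52 to 7.69 on the caudal arrays. As these ranges did not overlap, a covariate cannot separate the ratio from the domain. With the beta-actin ratio as a covariate Dll1 gave -0.73 (adjusted p = 0.082), Hes5 0.84 (0.278) and Id4 0.27 (0.658), none of them called. Dll3, Sox1, Sox3, Slc1a3 and Zic1 were still called, and Neurog1 was called higher (2.46, 0.0171). With the replicate block 7 were higher and 8 lower, where 9.44% and 12.3% of all genes were. The 3 gained upward were Hes6 (0.93, adjusted p = 0.0203), Neurog1 (1.11, 0.0234) and Neurog2 (0.63, 0.0222). The 4 gained downward were Numb (-0.68, adjusted p = 0.00448), Notch3 (-0.71, 0.00626), Olig1 (-0.66, 0.0206) and Nes (-1.31, 0.0257). With array medians made equal 3 were higher and 3 lower, and over all genes 152 and 355 in place of 364 and 576.

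Single arrays moved some of these calls in the fit without the block. Without the first C+ array 9 were lower. Among them Notch3 (-1.03, adjusted p = 0.0111) and Numb (-0.84, 0.0206) also passed with the block on all arrays, as did Hes6, which was higher (1.35, 0.0107). Notch2 (-0.83, adjusted p = 0.00461), Hes1 (-0.76, 0.0324) and Hey1 (-0.74, 0.0219) did not (0.133, 0.0592 and 0.237 with the block). Without the second R+ array Nes was lower (-1.91, adjusted p = 0.0286). In R+ against C+ on all arrays, second probe sets gave 0.27 for Notch3, 0.07 for Nes and 0.14 for Hes6. Those of Neurog1 and Notch2 gave 0.22 and -0.75, and none of these passed. The Sox3 call was lost without the second R+ array (0.0523) or the third C+ array (0.0641). The Id4 call was lost without the first or the third R+ array or the second or the third C+ array (0.0512 to 0.133), and the Slc1a3 call without the second or the third array of either group (0.0753 to 0.126).

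YFP-negative cells of the domains were compared in the same way. In R- against C- 2 genes were higher, 1 was lower and 36 were not called, where 1.05% of all genes were higher and 1.78% lower. Sox1 was higher in R- (0.80 ± 0.17, adjusted p = 0.0214) and so was Mfng (0.81 ± 0.17, 0.0151), and Zic1 was lower. The Sox1 call was lost without the second or the third R- array or any one C- array (adjusted p 0.0562 to 0.0924), and the Mfng call without the third R- array (0.0632) or the second C- array (0.0629). With the replicate block 9 were higher and 1 lower, where 4.46% and 5.74% of all genes were. Among the 9 were Prom1 (0.67, adjusted p = 0.00124), Jag1 (0.66, 0.0108), Sox21 (1.05, 0.0156) and Sox2 (0.43, 0.0388). The others gained were Id4 (0.53, adjusted p = 0.00113), Hes6 (0.98, 0.0286) and Neurog1 (1.19, 0.031). With the beta-actin ratio as a covariate Neurog1 (2.31, adjusted p = 0.0182), Prom1 (1.08, 0.0233) and Jag1 (1.05, 0.0441) were called higher. All 3 R- arrays lay above all 3 C- arrays for 15 of the 39 genes, and below them for 4, where 8.39% and 10.8% of all genes did so, and the median difference was 0.26 against -0.04 over all genes. Scaling each array to one median moved the share of higher calls over all genes from 37.2% to 51.8% in this comparison. In the difference of differences it moved from 42% to 31.7%.

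Other genes of the Notch pathway were counted in the same fits. Of 46 further components, among them the secretase that cleaves the receptor, ubiquitin ligases and co-repressors, 39 were measured. In R+ 2 were higher (Neurl1a, 1.01, and Dtx1, 1.09) and 2 lower (Nrarp, -2.23, and Notch4, -0.96), with a median of -0.08, where 4.34% of all genes were higher and 7.86% lower. In C+ 2 were higher (Dlk1, 3.16, and Neurl1a, 1.34) and 2 lower (Nrarp, -1.93, and Notch4), with a median of -0.06, where 5.71% and 7.39% of all genes were. Nrarp, a feedback inhibitor that Notch itself induces, was thus lower in both. With the replicate block 3 were higher and 7 lower in R+, where 8.59% and 12.3% of all genes were. In C+ the block gave 4 and 4, where 10.5% and 12.3% of all genes were. Dlk1, a Delta-like protein without the domain that activates receptors, was higher in C+ alone, and the difference between domains passed (-2.96).

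Of 51 further genes, mostly of progenitors and glia, 45 were measured. The list also holds Dcx and Tubb3, which are counted above among the genes of postmitotic neurons. Of the 45, 23 were lower and 1 was higher in R+, where 7.86% and 4.34% of all genes were. In C+ 25 were lower and 3 higher, where 7.39% and 5.71% of all genes were. The medians were -1.03 and -0.76. In the difference of differences 1 passed upward and 0 downward, where 0.49% and 0.677% of all genes did. Within the domains the largest differences were those of Lhx2 (-3.26 in R+ and -3.04 in C+) and Gli2 (-2.83 and -3.00), an effector of Hedgehog signalling. Zic4 and Zic5, relatives of Zic1, were lower in both domains as well.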

How the data were processed

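Expression was measured on 12 Affymetrix Mouse 430 2.0 arrays, 3 per sorted population. Per the labels' protocols, RNA was extracted with Trizol and amplified in a single round before biotin labelling. The deposited values are signal intensity on a linear scale, and the submitters' processing notes name MAS5, with version and settings not given in the sources used here. On every array the mean without the lowest and highest 2% was 500. Precision is set by how many arrays each group has.

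Of 45101 probe sets 64 were controls. The probe annotation gave 1 gene symbol to 34945, several to 932 and none to 9160, and 34741 were matched to RefSeq of GRCm38.p6, with 0 names changed. The filter kept 26061 probe sets, those above the overall median of 107 in 3 or more arrays. Each gene was read from the probe set brightest by mean log2(signal + 10), with _x_at sets used as a last resort. For 3 genes (Hes5, Hes6 and Slc1a3) the linear mean would choose another. Of 86 probe sets of the 41 genes 70 were kept, and 16 genes had a single one.

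The linear model (limma 3.58.1, R 4.3.3) ran on log2(signal + 10), which understates the change of dim genes, with a mean for each group, eBayes with a trend, two-sided tests and Benjamini-Hochberg adjustment at 0.05 over 12845 genes for each of 5 contrasts. The procedure was tested on simulated data. Replicate numbers pair the samples: after removal of group means, the correlation within the 18 same-numbered pairs was 0.118 to 0.52, against -0.398 to 0.273 in the other 36. Blocked values stand beside the calls they change. Alternatives were other offsets, scalings, filters, moderations, probe set rules, the block, the beta-actin ratio as a covariate, only the groups compared, and each array left out. The genes, lists, rules and tests were chosen with earlier results of these data known. Any of the 41 genes may be named, and of the further lists at most 5 each with the largest differences past the threshold.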

Additional observations from a re-analysis of the deposited data

Results flagged for a closer look

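For 2 genes the difference between YFP-positive and YFP-negative cells was not the same in the rostral as in the caudal domain, by a test of the difference itself (limma, Benjamini-Hochberg over all genes). Dll1 gave -1.10 ± 0.21 (SE) for (R+ minus R-) minus (C+ minus C-), with adjusted p = 0.0159. Dll3 gave -1.33 ± 0.23, with adjusted p = 0.00738. All 3 R+ arrays lay below all 3 R- arrays for both genes, while the arrays of C+ and C- overlapped.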

How the results depend on the processing

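No called difference changed sign under any alternative. Of 28 genes called in R+ against R- 21 were called under every alternative and 7 were lost under some. In C+ against C- these were 18 and 6 of 24, 3 and 5 of 8 for R+ against C+, 1 and 2 of 3 for R- against C-, and 1 and 1 of 2 for the difference of differences. With the replicate block, genes higher numbered 2 in R+ against R-, 4 in C+ against C-, 7 in R+ against C+ and 9 in R- against C-. Genes lower numbered 8 in R+ against C+ and 5 in the difference of differences. With the beta-actin ratio as a covariate, genes higher numbered 2 in R+ against R-, 2 in C+ against C- and 5 in the comparison of YFP-negative cells. With only the groups compared, they numbered 2 in R+ against R- and 4 in R- against C-. Without a trend in the moderation 1 gene was lower in the difference of differences. Leaving out 1 array at a time gave 1 to 2 higher and 23 to 28 lower in R+ against R-, 1 to 2 and 19 to 23 in C+ against C-, 3 to 5 and 3 to 9 in R+ against C+, 0 to 3 and 1 to 1 in R- against C-, and 1 to 3 lower in the difference of differences. Leaving out replicate 1 of every group, an alternative chosen after seeing the data, gave 2 higher in R+ against R-, 2 higher in C+ against C-, 10 lower in R+ against C+, 6 higher in R- against C- and 4 lower in the difference of differences. What caused these changes was not tested. For the alternatives of this paragraph other than the block, shares over all genes were not counted. Probe sets near the background limit what can be said of Hey2, Zic2, Olig2, Olig3, Rest, Lfng and, in C+, Neurog1.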
